A study of Sus scrofa with 8 samples.

Results

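The mesothelium is the single layer of flat cells that lines the peritoneal cavity, and 10 genes taken as its identity genes were followed here: WT1, MSLN, GPM6A, RSPO1, HAS1, LRRN4, BNC1, CALB2, PDPN and TCF21. They were chosen by symbol. Of the 31907 genes counted in the series, 8 of the 10 had a gene ID paired with the symbol. MSLN and LRRN4 had none and are not analysed here. Of the 8, CALB2 had 0 counts in every library, and the other 7 passed the low-count filter that left 16549 genes for testing.

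The tissue came from Guizhou minipigs aged 8 months, with 2 libraries in each of 4 groups. MN-Exp is neobladder mucosa from the experimental group, MN-Ctrl is neobladder mucosa from the control group, NP is normal peritoneum and MNB is mucosa of normal bladder. A neobladder is a urinary reservoir made from a segment of ileum, and the series title describes the animal's own peritoneum as the replacement for its mucosa. The labels state neither how the control reservoir was lined, nor the time after surgery, nor whether the replicates came from separate animals, so p-values measure the spread between these samples only. The question followed here is how much of the peritoneal expression of these genes was measured in MN-Exp.

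Mesothelial cells come from the lateral plate mesoderm and keep traits of both epithelium and mesenchyme. They rest on a thin stroma, make a slippery surface rich in hyaluronan, and are marked by the transcription factor WT1, which drives mesothelial development. After injury they can detach or take on a fibroblast-like state. The mucosa of bladder and ileum, by contrast, is an epithelium on a lamina propria.

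Library totals ran from 7939291 to 11884868 counts. A level here is given in CPM, the count scaled by library depth, after edgeR's TMM scaling, whose factors were 0.839 and 0.45 in MN-Ctrl and 1.09 to 1.24 in the other 6 libraries. Enterocyte markers summed to 47814 to 166079 CPM in MN-Ctrl, and to 169.2 to 843.5 CPM over the other 3 groups. On that scale 3 counts in a library equal 0.224 to 0.561 CPM. Levels are not divided by transcript length, so they are compared between groups and not between genes. Fold changes are on the log2 scale, as the first named group over the second with the standard error (SE), and the test is the quasi-likelihood test of edgeR, with p adjusted over all 16549 genes. A gene is called where that adjusted p is under 0.05. Because these are bulk samples, fewer cells of a type and less RNA per cell cannot be told apart.

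Peritoneum carried 5 of the 7 measured genes at its highest level, and in MN-Exp these 5 stood far closer to the other mucosae than to NP. WT1 and BNC1 had 1 count each over both MN-Exp libraries. GPM6A and RSPO1 stood at 2.11% and 1.46% of their NP means, and PDPN at 22.6%. The other 2 genes, HAS1 and TCF21, did not have their highest level in peritoneum. TCF21 was 3.94 log2 units higher in MN-Exp than in NP, and HAS1 was called between MN-Exp and MN-Ctrl.

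**Figure D1:**
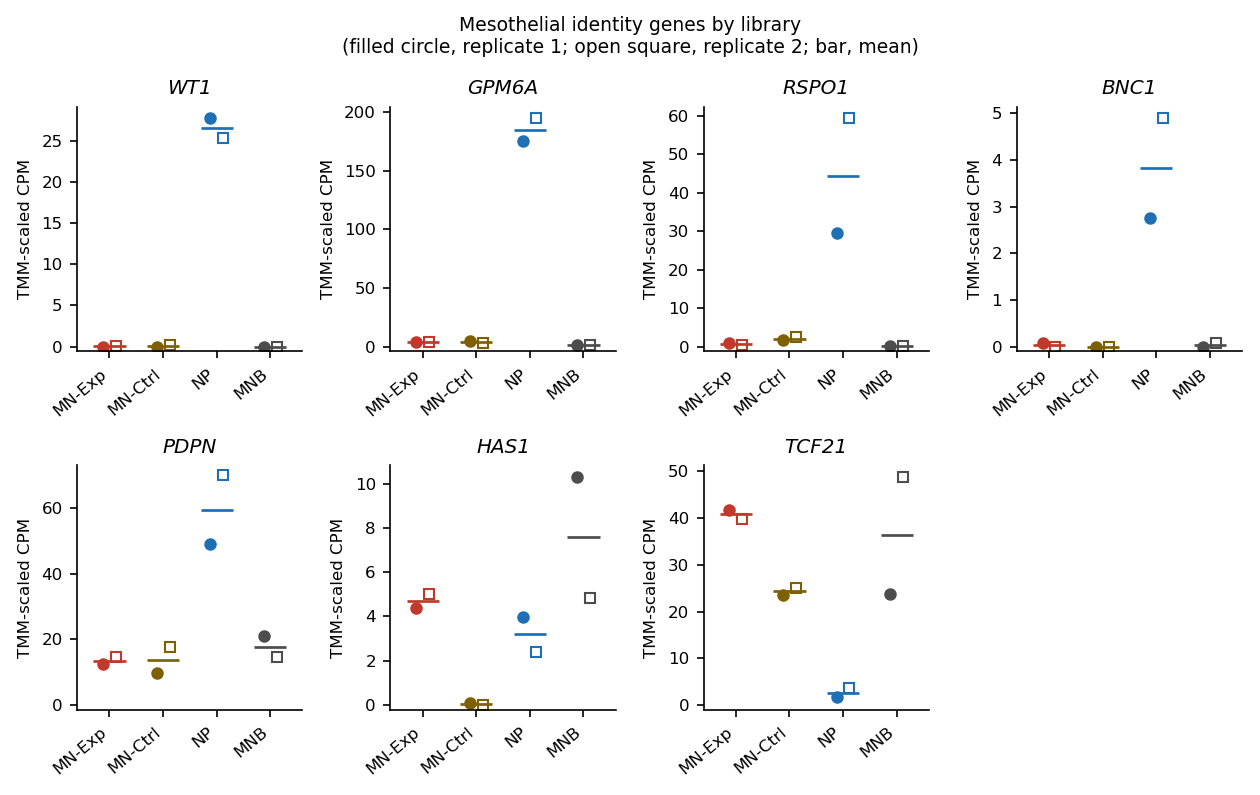
Scaled CPM (linear axes from 0, 1 panel a gene) of the 7 measured members in the 2 libraries of each group, with bars at the mean. WT1, GPM6A, RSPO1, BNC1 and PDPN are highest in both NP libraries, TCF21 is lowest there, and HAS1 is near 0 in MN-Ctrl.

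WT1 (ENSSSCG00000013316, chromosome 2 from 28411467 to 28456007 in the RefSeq annotation of Sscrofa11.1) is a zinc finger transcription factor of mesothelium, kidney and gonad. Its raw counts were 0 and 1 in MN-Exp, 0 and 1 in MN-Ctrl, 272 and 284 in NP, and 0 and 0 in MNB. Both peritoneum libraries therefore held nearly all WT1 reads of the series. On the scaled level NP stood at 27.7 and 25.3 CPM. The log2 fold change of MN-Exp over NP was -8.88 (SE 0.94, adjusted p = 0.000235), and the ratio of summed counts gives a level 596.8-fold lower, with a 95% counting interval of 106.7 to 23614. The same test of MN-Ctrl against NP gave a log2 fold change of -8.32 (SE 0.95, adjusted p = 0.000185), with summed counts 383.7-fold lower and a counting interval of 68.6 to 15184. MN-Exp over NP was -7.95 without MN-Exp replicate 1 and -11.1 without MN-Exp replicate 2, and MN-Ctrl over NP was -7.05 without MN-Ctrl replicate 1 and -11.2 without MN-Ctrl replicate 2. In each pair the larger value leaves the group at 0 counts and is no bound. Against MNB, whose libraries are at 0, NP was at least 227-fold higher when 3 counts are assumed over the group's 2 libraries. Between MN-Exp, MN-Ctrl and MNB no fold is given, since all 3 groups are under that floor.

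BNC1 (ENSSSCG00000001798, chromosome 7 from 51651179 to 51679781) encodes basonuclin 1, a zinc finger protein of basal keratinocytes, germ cells and mesothelium. Counts were 1 and 0 in MN-Exp, 0 and 0 in MN-Ctrl, 27 and 55 in NP, and 0 and 1 in MNB. The 2 peritoneum libraries, at 2.75 and 4.89 CPM, were the only ones above 1 count. In MN-Exp it was lower than in NP, with a log2 fold change of -6.10 (SE 1.39, adjusted p = 0.0118), or 88-fold by summed counts with a counting interval of 15.4 to 3518. This call was lost without MN-Exp replicate 1 (adjusted p = 0.0625), without MN-Exp replicate 2 (adjusted p = 0.123) or without NP replicate 2 (adjusted p = 0.0706), with log2 fold changes of -8.29, -5.28 and -5.59. Over all settings the adjusted p ran from 0.0013 to 0.123. MN-Ctrl, at 0 counts, was at least 18.9-fold lower than NP. NP was higher than MNB by 6.25 log2 units (SE 1.38, adjusted p = 0.0119), or 100.4-fold by summed counts with a counting interval of 17.5 to 4014. That call was lost without NP replicate 2, MNB replicate 1 or MNB replicate 2 (adjusted p = 0.0689, 0.131 and 0.0666), where the log2 fold changes were 5.73, 5.44 and 8.26.

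WT1 and BNC1 passed the low-count filter through their peritoneum libraries alone, so they could be tested only because they were high there.

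GPM6A (ENSSSCG00000023328, chromosome 15 from 38258496 to 38555129) encodes a tetraspan membrane glycoprotein best known from neurons and also used to mark mesothelial cells. It stood at 3.81 and 3.98 CPM in MN-Exp, 4.46 and 3.18 CPM in MN-Ctrl, 175 and 195 CPM in NP, and 1.53 and 0.895 CPM in MNB. Peritoneum lay far above every mucosa, the MN-Exp libraries lay inside the range of MN-Ctrl, and both neobladders lay above MNB. Against NP, MN-Exp was lower with a log2 fold change of -5.56 (SE 0.44, adjusted p = 3.73e-05). Between MN-Exp and MN-Ctrl the log2 fold change was 0.01 (SE 0.40, adjusted p = 0.991). Against MNB, MN-Exp gave a log2 fold change of 1.68 (SE 0.42, adjusted p = 0.252), and MN-Ctrl, with nearly the same fold change of 1.67 (SE 0.43), was called higher (adjusted p = 0.0201). The p-values are adjusted within each comparison, and these 2 called 16 and 3686 of the 16549 genes. Near-equal estimates can therefore be called in 1 comparison and not in the other, and MN-Exp and MN-Ctrl are not set apart by it. The MN-Exp comparison with MNB was called higher by DESeq2 (adjusted p = 0.0365) and by edgeR without MN-Ctrl replicate 1 or 2 (adjusted p = 0.0259 and 0.0254), and over all settings the adjusted p ran from 0.0254 to 1. The MN-Ctrl comparison with MNB was lost on library totals alone (log2 fold change 0.84, adjusted p = 0.266) and without MNB replicate 1 or 2 (adjusted p = 0.0668 and 0.19).

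PDPN (ENSSSCG00000003451, chromosome 6 from 73019063 to 73050000) encodes podoplanin, a mucin-like membrane protein of mesothelium, lymphatic endothelium, basal epithelium and some fibroblasts. It stood at 12.4 and 14.5 CPM in MN-Exp, 9.79 and 17.8 CPM in MN-Ctrl, 49.1 and 70 CPM in NP, and 21.1 and 14.5 CPM in MNB. No mucosal library reached the lower of the 2 peritoneum libraries, and the 3 mucosae lay close together. MN-Exp was lower than NP with a log2 fold change of -2.14 (SE 0.42, adjusted p = 0.00483), which became adjusted p = 0.0576 without MN-Exp replicate 1, with a range over all settings of 5.63e-05 to 0.0576. Against MN-Ctrl the log2 fold change was -0.02 (SE 0.41, adjusted p = 0.981), and against MNB it was -0.40 (SE 0.41, adjusted p = 0.94). NP was higher than MNB by 1.74 log2 units (SE 0.41, adjusted p = 0.0141), a call lost without NP replicate 2, MNB replicate 1 or MNB replicate 2 (adjusted p = 0.0993, 0.0685 and 0.143).

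RSPO1 (ENSSSCG00000032240, chromosome 6 from 93664839 to 93690328) encodes R-spondin 1, a secreted protein that binds LGR receptors and strengthens Wnt signalling. It stood at 0.931 and 0.37 CPM in MN-Exp, 1.74 and 2.43 CPM in MN-Ctrl, 29.6 and 59.4 CPM in NP, and 0.242 and 0.0746 CPM in MNB. The groups did not overlap, and ran from NP through MN-Ctrl and MN-Exp to MNB. In counts the MN-Exp libraries held 11 and 4 reads, against 3 and 1 in MNB. The log2 fold change of MN-Exp over NP was -6.06 (SE 0.65, adjusted p = 0.000173), and it was -6.83 without MN-Exp replicate 1 and -5.44 without NP replicate 2. Over MN-Ctrl it was -1.62 (SE 0.65, adjusted p = 0.102) and over MNB 2.00 (SE 0.84, adjusted p = 0.57), so neither neighbour of MN-Exp in that order differed from it by the test. MN-Ctrl was higher than MNB by 3.62 log2 units (SE 0.78, adjusted p = 0.00894), and the value was 4.56 without MNB replicate 1 and 3.01 without MNB replicate 2 (adjusted p = 0.0795), and 2.71 on library totals alone.

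HAS1 (ENSSSCG00000003239, chromosome 6 from 58303274 to 58313486) encodes a hyaluronan synthase, an enzyme of the plasma membrane that spins out the glycan coating mesothelial surfaces. It stood at 4.4 and 5 CPM in MN-Exp, 0.109 and 0 CPM in MN-Ctrl, 3.97 and 2.4 CPM in NP, and 10.3 and 4.85 CPM in MNB. MN-Ctrl stood apart with 1 count in all, while MN-Exp lay just above NP and overlapped MNB. MN-Exp was higher than MN-Ctrl by 5.89 log2 units (SE 1.01, adjusted p = 0.00258), or 68.2-fold by summed counts with a counting interval of 12 to 2717. That value was 8.67 without MN-Ctrl replicate 1, which leaves MN-Ctrl at 0 counts, 5.30 without MN-Ctrl replicate 2 and 6.55 on library totals alone. MN-Ctrl over NP gave -5.33 (SE 1.02, adjusted p = 0.00248), with summed counts 45.6-fold lower and a counting interval of 7.9 to 1826. MN-Ctrl over MNB gave -6.58 (SE 1.0, adjusted p = 0.00131), with summed counts 108.8-fold lower and an interval of 19.3 to 4318. Without MN-Ctrl replicate 1 these values were -8.07 and -9.35, without MN-Ctrl replicate 2 they were -4.71 and -5.98, and on library totals alone -6.12 and -7.31, while MN-Ctrl over MNB was -5.95 without MNB replicate 1. MN-Exp against NP gave 0.56 (SE 0.63, adjusted p = 0.549), MN-Exp against MNB gave -0.69 (SE 0.61, adjusted p = 0.916), and NP against MNB gave -1.25 (SE 0.63, adjusted p = 0.182). Each of the 2 NP libraries lay below both MNB libraries.

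TCF21 (ENSSSCG00000033258, chromosome 1 from 29975280 to 29978273) encodes a basic helix-loop-helix transcription factor of mesenchyme beneath the epithelium of visceral organs and of the embryonic coelomic lining. It stood at 41.8 and 39.8 CPM in MN-Exp, 23.6 and 25.1 CPM in MN-Ctrl, 1.63 and 3.65 CPM in NP, and 23.8 and 48.9 CPM in MNB. Peritoneum was the lowest group, and the 3 mucosae stood well above it. MN-Exp was higher than NP (log2 fold change 3.94, SE 0.52, adjusted p = 0.000513), MN-Ctrl was higher than NP (3.19, SE 0.51, adjusted p = 0.000859), and NP was lower than MNB (-3.77, SE 0.52, adjusted p = 0.000706). Without NP replicate 2 these values were 4.67, 3.95 and -4.52, NP over MNB was -3.18 without MNB replicate 2, and MN-Ctrl over NP was 2.26 on library totals alone. MN-Exp did not differ by the test from MN-Ctrl (0.75, SE 0.45, adjusted p = 0.262) or from MNB (0.17, SE 0.45, adjusted p = 0.996). Between NP and the mucosae TCF21 ran opposite to WT1, with a Pearson correlation of -0.96 between their log2 levels over the 8 libraries. WT1 had 0 or 1 count in every mucosal library, so this value restates that contrast and shows no relation within the mucosae. Smooth muscle markers summed to 1169 to 1359 CPM in MN-Exp, against 85.2 to 105.9 CPM in NP. In MN-Ctrl they summed to 268.9 to 287.2 CPM, and in MNB to 599 to 890.6 CPM. Of the 5 tested, 4 were higher in MN-Exp than in NP, beside 12.4% of all genes. Fibroblast markers went the other way, with 9 of 10 lower in MN-Exp than in NP, beside 11.8% of all genes. The part of either list in the TCF21 difference was not tested.

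CALB2 (ENSSSCG00000002730, chromosome 6 from 14392220 to 14420663) encodes calretinin, a calcium-binding protein used to mark mesothelium in human pathology and also found in enteric neurons. It had 0 counts in all 8 libraries, which allows a level of up to 0.254 to 0.278 CPM in MN-Exp, 0.326 to 0.561 CPM in MN-Ctrl, 0.267 to 0.305 CPM in NP and 0.224 to 0.242 CPM in MNB. These limits, like the intervals above, cover counting error only.

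**Figure D2:**
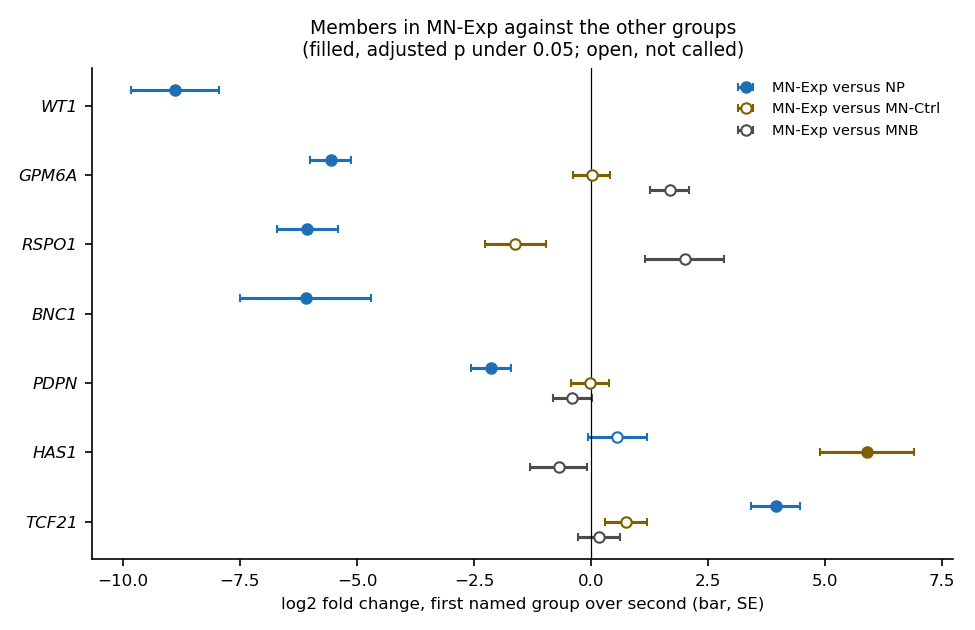
Log2 fold change of each member in MN-Exp over NP, MN-Ctrl and MNB, with bars of 1 SE (filled, adjusted p under 0.05). The blue points of WT1, GPM6A, RSPO1, BNC1 and PDPN lie left of 0 and that of TCF21 at 3.94, HAS1 stands at 5.89 against MN-Ctrl, and pairs in which both groups held 3 counts or fewer are left out.

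Counted over the 7 tested members, 5 were lower and 1 higher in MN-Exp than in NP, where 24.2% of all genes tested were called (12.4% higher and 11.8% lower). The members' median log2 fold change was -5.56, beside -0.01 over all genes. Since WT1 and BNC1 could enter only through NP, the count and the median describe these genes and support no direction. Between MN-Exp, MN-Ctrl and MNB, WT1 and BNC1 could not be called, since each group held at most 1 count of either gene. Between MN-Exp and MNB edgeR called 0 of 7, with 2 at an unadjusted p under 0.05 and 1 called by DESeq2, where 0.0967% of all genes were called (0.0423% higher and 0.0544% lower). Between MN-Exp and MN-Ctrl 1 of 7 was called, higher, where 21.7% of all genes were called (10.4% higher and 11.3% lower). Against these, NP differed from MNB in 6 of 7, 5 higher and 1 lower, where 21.1% of all genes were called (9.93% higher and 11.1% lower). MN-Ctrl differed from NP in 7 of 7, 1 higher and 6 lower, where 42.3% of all genes were called (21.6% higher and 20.6% lower), and from MNB in 3 of 7, 2 higher and 1 lower, where 22.3% of all genes were called (11.2% higher and 11.1% lower). WT1 and BNC1 are among the calls of NP against MNB and of MN-Ctrl against NP, so those counts support no direction either. The comparisons share libraries and 1 estimate of the spread, so their counts are not independent of each other. Leaving out 1 library gave 4 to 6 called members for MN-Exp against NP, 4 to 6 for NP against MNB and 1 to 3 for MN-Ctrl against MNB. The last was 1, lower, without MNB replicate 2, and on library totals alone it was 1 higher and 2 lower.

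Other genes used to mark mesothelium moved with the members in part. Of 20 further genes listed, 14 had a gene ID and 13 were tested. In MN-Exp 8 were lower than in NP and 1 was higher, with a median log2 fold change of -2.60 beside -0.01 over all genes. Of all genes tested 24.2% were called in this comparison (12.4% higher and 11.8% lower). PKHD1L1, a large receptor-like protein, stood at 0 and 0.185 CPM in MN-Exp, against 10.2 and 31.9 CPM in NP (log2 fold change -7.70, SE 1.0, adjusted p = 0.00047), or 245.8-fold lower by summed counts with a counting interval of 67.7 to 2036. CRB2, a polarity protein of the Crumbs family, had 0 counts in MN-Exp and stood at 3.15 and 9.17 CPM in NP, so MN-Exp was at least 47.9-fold lower. Both genes follow the pattern of WT1, with 6 counts of PKHD1L1 and 0 of CRB2 over the MNB libraries. Like WT1 they could be tested only because they were high in NP, so they give the list's count and median no support. C3, the central complement component, and the protease inhibitor SLPI gave log2 fold changes of -4.17 and -4.36 (SE 0.63 and 0.70, adjusted p = 0.0011 and 0.00162). The matrix protein EFEMP1, the claudin CLDN15 and the sulfatase SULF1 gave -3.56, -3.01 and -2.60 (adjusted p = 0.00366, 0.0119 and 0.00141).

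ALDH1A2, which makes retinoic acid and is strong in mesothelium and coelomic epithelium, was measured in MN-Exp between its levels in NP and MNB. It stood at 49.9 and 41.3 CPM in MN-Exp, 0.979 and 0.748 CPM in MN-Ctrl, 139 and 129 CPM in NP, and 31.3 and 34.4 CPM in MNB. The groups did not overlap. MN-Exp was lower than NP (log2 fold change -1.55, SE 0.33, adjusted p = 0.00759) and did not differ by the test from MNB (log2 fold change 0.47, SE 0.33, adjusted p = 0.842).

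The keratin partners KRT8 and KRT18 did not move together. KRT18 stood at 95.1 and 181 CPM in MN-Exp, against 3.05 and 1.51 CPM in NP, and was the 1 gene of this list that was higher in MN-Exp (log2 fold change 5.92, SE 0.56, adjusted p = 8.84e-05). KRT8 stood at 1432 and 1784 CPM in MN-Exp, against 937 and 2269 CPM in NP, with a log2 fold change of 0.00 (SE 0.58, adjusted p = 0.999). UPK1B, CDH3, KRT8 and KRT18 are also genes of urothelium or other epithelium. None of the 13 was called by edgeR between MN-Exp and MNB, with 1 at an unadjusted p under 0.05 and 0 by DESeq2, where edgeR called 0.0967% of all genes. Against MN-Ctrl 3 were higher in MN-Exp, namely UPK1B, CDH3 and ALDH1A2, and 4 were lower, namely KRT8, CLDN15, SLPI and C3. Of all genes tested 10.4% were higher and 11.3% lower there. Without MN-Exp replicate 1 the calls against MN-Ctrl were 3 higher and 1 lower, and without MN-Exp replicate 2 they were 3 higher and 0 lower.

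**Figure D3:**
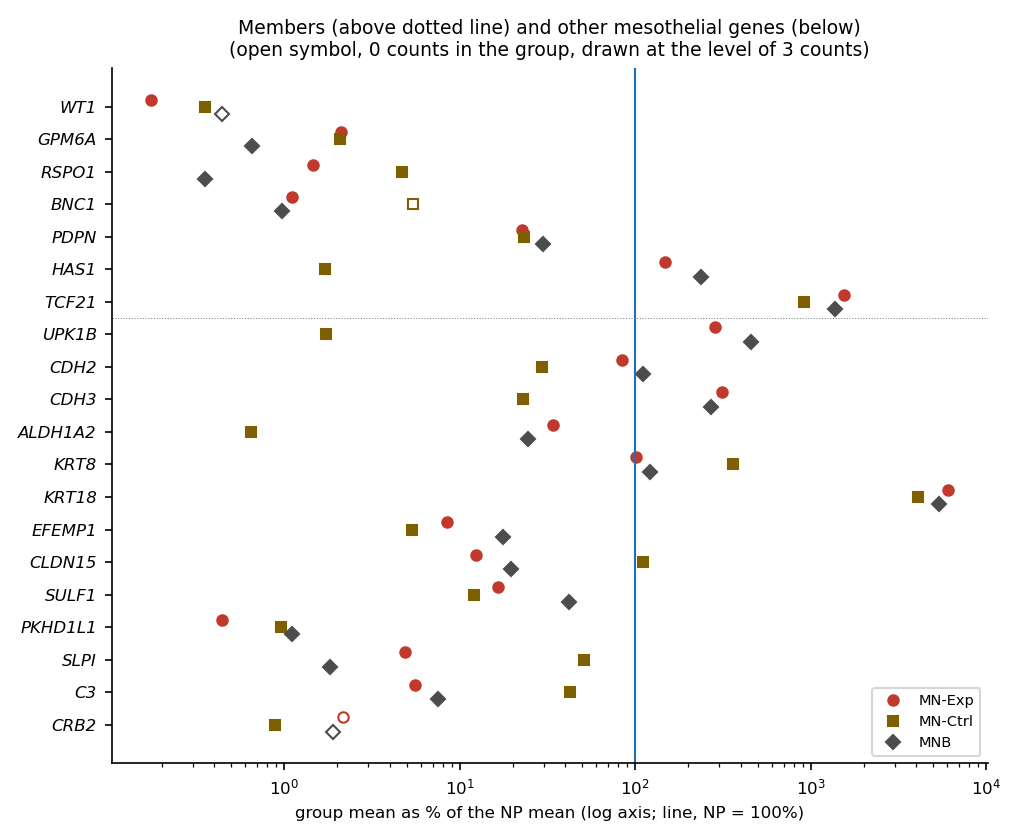
Mean level in MN-Exp, MN-Ctrl and MNB as a percentage of the NP mean (log axis, vertical line at NP) for 7 members and 13 other mesothelial genes, with groups at 0 counts drawn open at 3 counts. WT1, GPM6A, RSPO1, BNC1, PKHD1L1 and CRB2 lie near or below a few percent in every mucosa, and TCF21 and KRT18 lie farthest above NP in MN-Exp.

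RSPO1 was set beside the other genes of R-spondin signalling. R-spondins bind the receptors LGR4, LGR5 and LGR6 and draw the membrane ligases RNF43 and ZNRF3 away from Wnt receptors, which those ligases otherwise remove. Of 8 further genes of the pathway 5 were tested, and in MN-Exp 3 were lower than in NP and 1 was higher, with a median log2 fold change of -1.90 beside -0.01 over all genes. Of all genes tested 24.2% were called in this comparison (12.4% higher and 11.8% lower). LGR5 stood at 0.508 and 0.185 CPM in MN-Exp, 1.09 and 0.374 CPM in MN-Ctrl, 118 and 289 CPM in NP, and 0.323 and 0.597 CPM in MNB. Receptor and ligand were thus both high in both peritoneum libraries and low in each mucosa. For LGR5 the log2 fold change of MN-Exp over NP was -9.13 (SE 0.76, adjusted p = 4.73e-05), and the gene could be tested only because it was high in NP, so it gives the list's count no support.

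A second ligand gene, RSPO3, stood at 2.03 and 2.13 CPM in MN-Exp, against 4.48 and 14.4 CPM in NP (log2 fold change -2.18, SE 0.69, adjusted p = 0.0438). The ligase genes parted. ZNRF3 was lower in MN-Exp than in NP (-1.90, SE 0.52, adjusted p = 0.0241), while RNF43 stood at 17.9 and 16.9 CPM in MN-Exp, against 0.61 and 2.22 CPM in NP, and was higher (3.59, SE 0.61, adjusted p = 0.00222). LGR4, the receptor with the broadest expression, gave 1.06 (SE 0.50, adjusted p = 0.15). Without MN-Exp replicate 1, MN-Exp replicate 2 or NP replicate 2 the test called 2 of the 5, 1 higher and 1 lower. Between MN-Exp and MN-Ctrl edgeR called 0 of the 5, with 1 at an unadjusted p under 0.05 and 0 by DESeq2, where edgeR called 21.7% of all genes.

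**Figure D4:**
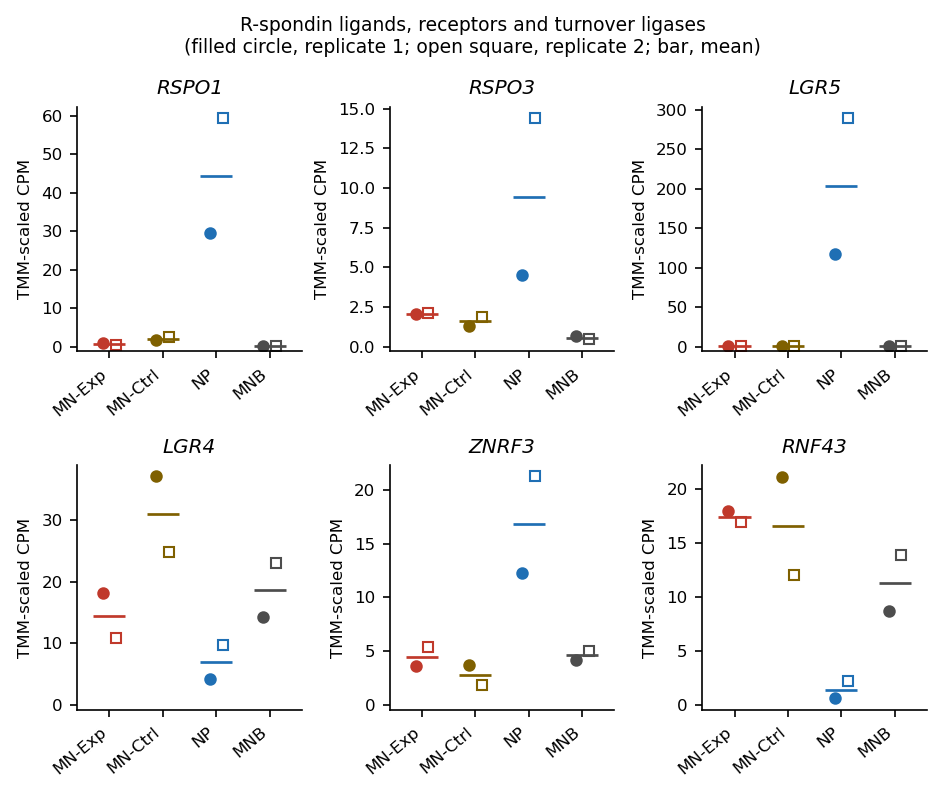
Scaled CPM (linear axes from 0) of RSPO1, RSPO3, LGR5, LGR4, ZNRF3 and RNF43 in each library, with bars at the group mean. RSPO1 and LGR5 are high in both NP libraries and near 0 elsewhere, and RNF43 is lowest in NP.

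HAS1 was likewise set beside genes that make, cut and bind hyaluronan, of which 9 of 15 listed were tested. In MN-Exp 1 was higher and 2 were lower than in NP, where 24.2% of all genes tested were called, with a median log2 fold change of 0.04. CD44, the main cell surface receptor of hyaluronan, stood at 261 and 248 CPM in MN-Exp, against 59.8 and 55.6 CPM in NP (log2 fold change 2.14, SE 0.38, adjusted p = 0.00273). LYVE1, the hyaluronan receptor of lymphatic endothelium, and ITIH4, a heavy chain of the inter-alpha-trypsin inhibitor family, were lower in MN-Exp, with log2 fold changes of -1.55 and -2.01 (adjusted p = 0.0181 and 0.0192). Without MN-Exp replicate 1 or 2 the test called 1 of the 9, higher, and without NP replicate 2 it called 1 higher and 1 lower. Without NP replicate 1 it called 3 higher and 1 lower, so the balance of directions turned. The other synthase measured, HAS2, stood at 1.1 and 0.926 CPM in MN-Exp, 4.57 and 6.74 CPM in MN-Ctrl, 1.32 and 0 CPM in NP, and 12.9 and 7.39 CPM in MNB. HAS2 thus had its 2 highest libraries in MNB. Its log2 fold change for MN-Exp over MN-Ctrl was -2.46 (SE 0.97, adjusted p = 0.0958). HAS3 had 0 counts in all libraries.

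Transcription factors of coelomic and visceral mesenchyme, the setting in which WT1 and TCF21 act in the embryo, were lower in MN-Exp than in NP in 6 of 8 tested cases and higher in 0, with a median log2 fold change of -2.37 beside -0.01 over all genes. Of all genes tested 24.2% were called between MN-Exp and NP (12.4% higher and 11.8% lower). Between MN-Exp and MN-Ctrl 21.7% were called (10.4% higher and 11.3% lower). GATA6 stood at 4.82 and 9.26 CPM in MN-Exp, 69.4 and 34.2 CPM in MN-Ctrl, 66.3 and 72.7 CPM in NP, and 19.4 and 16.7 CPM in MNB. It was thus lowest in MN-Exp (-3.30 against NP, SE 0.48, adjusted p = 0.000873) and also lower there than in MN-Ctrl (-2.88, SE 0.47, adjusted p = 0.00207). MEIS2 stood at 13.2 and 13.7 CPM in MN-Exp, against 76.6 and 83.3 CPM in NP (-2.57, SE 0.50, adjusted p = 0.00472), and NR2F2 at 19.6 and 16.1 CPM, against 77.6 and 87.8 CPM (-2.21, SE 0.38, adjusted p = 0.00234). TBX18, HAND2 and MEIS1 were also lower (adjusted p = 0.0356, 0.0135 and 0.0348), of which TBX18 could be tested only because it was high in NP and gives the count no support. Without MN-Exp replicate 1 or 2 the test called 2 of the 8, and without NP replicate 2 it called 3. Against MN-Ctrl, MN-Exp was higher in 3 of the 8, namely TBX5, MEIS1 and MEIS2, beside the lower GATA6, and without MN-Exp replicate 1 or 2 the test called 2 in all.

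Markers of other cell types differed between MN-Exp and NP as well, and their part in the results above was not tested. Of all genes tested 24.2% were called in this comparison (12.4% higher and 11.8% lower). The NP libraries contained WT1, KRT8 and UPK1B, the last at 308 and 572 CPM. KRT18 was at 3.05 CPM or less there, and CALB2 was at 0 in every library of the series. Whether the gene IDs of KRT18 and CALB2 capture all reads of these genes was not tested. The 10 fibroblast markers summed to 4276 to 4526 CPM in MN-Exp, 1301 to 2709 CPM in MN-Ctrl, 55164 to 73856 CPM in NP, and 14533 to 16038 CPM in MNB, and 9 of 10 were lower in MN-Exp than in NP. Adipocyte markers summed to 7.69 to 11.2 CPM in MN-Exp, against 840.7 to 1310 CPM in NP, with 5 of 5 tested lower. Of these PLIN1, at 4 counts in MN-Exp and 85 in NP, could be tested only because it was high in NP. It gives that count no support. For ADIPOQ, the hormone of fat cells, the mean was 0.466 ± 0.658 CPM in MN-Exp and 499 ± 167 CPM in NP (SD, n = 2 each). Blood endothelial markers summed to 545 to 634.7 CPM in MN-Exp, against 2093 to 2814 CPM in NP, with 5 of 5 lower. In the same libraries 7 of 7 tested urothelium markers were higher in MN-Exp, where they summed to 3906 to 6340 CPM, against 247.1 to 426.6 CPM in NP.

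For GPM6A and CALB2, which neurons also express, nerve and glia markers were examined. They summed to 4.35 to 5.93 CPM in MN-Exp, 9.46 to 17.8 CPM in MN-Ctrl, 29.3 to 42.6 CPM in NP, and 7.31 to 7.42 CPM in MNB. Of 6 tested 1 was higher and 1 lower in MN-Exp than in NP, where 24.2% of all genes tested were called. In peritoneum the neuronal hydrolase UCHL1 stood at 21.6 and 24.9 CPM, while the neuronal markers ELAVL3, ELAVL4 and SNAP25 were at 0 counts there. For PDPN, lymphatic endothelial markers summed to 113.2 to 114.1 CPM in MN-Exp, against 88.9 to 197.6 CPM in NP, so the sums of the 2 groups overlapped. CCL21 was the largest part of the MN-Exp sums, at 71.2 and 79.6 CPM, against 28.6 and 123.3 CPM in NP. Of the 7 log2 fold changes 5 were negative and 2 positive, and 1 gene, LYVE1, was called lower in MN-Exp. Their part in the PDPN difference was not tested. For BNC1, squamous epithelium markers summed to 2546 to 4730 CPM in MN-Exp, against 7.65 to 7.73 CPM in NP. Most of the MN-Exp sums was IVL, at 2055 and 4561 CPM, and the part of these markers in the BNC1 difference was not tested.

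**Figure D5:**
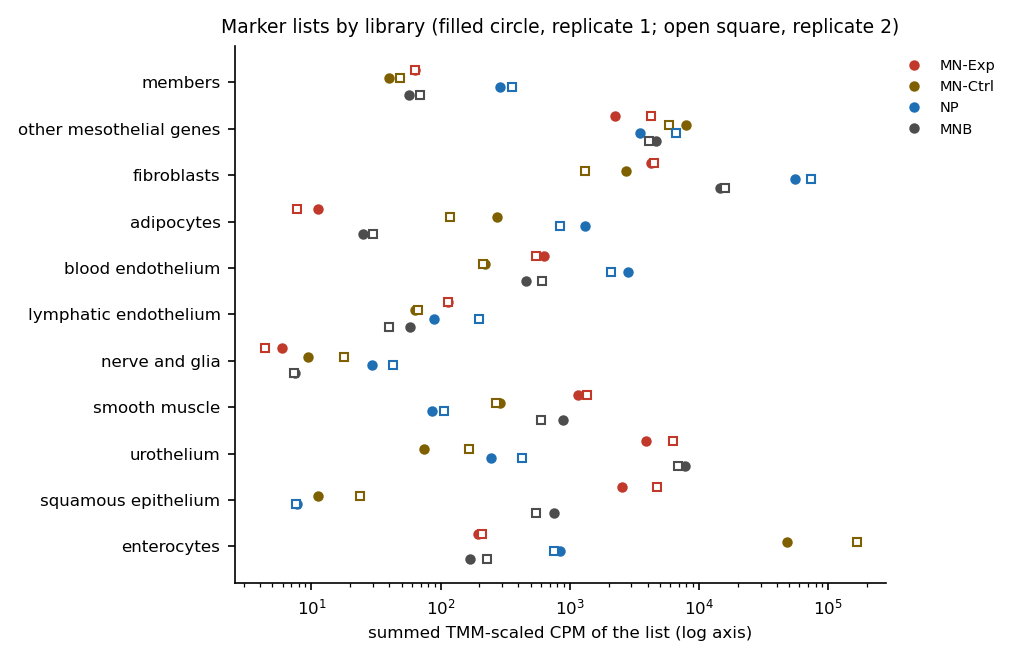
Summed scaled CPM (log axis) of the members and of 10 marker lists in each library (filled circle replicate 1, open square replicate 2). The members, fibroblast, adipocyte, blood endothelial and nerve lists are highest in NP, and the urothelium and squamous lists are high in MN-Exp and MNB.

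Among themselves the members fell into a set of 5 and a pair of exceptions. WT1, GPM6A, RSPO1, BNC1 and PDPN each had another gene of the 5 as closest member over the 8 libraries, with Pearson correlations of 0.94 to 0.974 between log2 levels. HAS1 reached at most 0.238 with any member. These values describe 8 libraries that form 4 pairs of replicates and carry no test. All 5 genes were highest in both NP libraries, so their correlations carry the contrast of NP with the mucosae. For WT1 and BNC1, at 0 or 1 count in every mucosal library, the correlations only restate that contrast. Among 9859 other genes with a symbol and a mean of at least 5 CPM, the 6 with the profile most like the members' mean profile were SNTB2, STAT5B, VIPR2, GLIS2, PKD2 and PALM, with correlations of 0.984 to 0.989. The neuropeptide receptor VIPR2 stood at 1.02 and 0.556 CPM in MN-Exp, 0.109 and 0.187 CPM in MN-Ctrl, 158 and 116 CPM in NP, and 0.484 and 0.522 CPM in MNB. VIPR2 thus reached the mean of 5 CPM only through NP. PKD2, the cation channel polycystin 2, stood at 11.4 and 8.06 CPM in MN-Exp, against 75.2 and 101 CPM in NP. SNTB2, an adaptor of the dystrophin complex, stood at 15.4 and 11.2 CPM in MN-Exp, against 85.8 and 86.7 CPM in NP.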

How the data were processed

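Per the labels, total RNA of fresh tissue was made into libraries with Smart-seq2 and a TruSeq kit and sequenced on an Illumina instrument. The authors deposited raw counts per Ensembl gene in 1 file a library. Per the submitters' processing notes these come from Trim Galore, HISAT2 and HTSeq 0.11.1 on Sscrofa11.1. The annotation release and strand setting are not given in the sources used here, so reads of overlapping antisense genes cannot be told apart from those of a member such as WT1.

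IDs were paired with symbols through a supplied table (15029 of 31907 genes). Counts were analysed with edgeR 4.0.16 in R 4.3.3: filterByExpr over the 4 groups, TMM factors, and 1 robust quasi-likelihood fit over all 8 libraries with 4 residual degrees of freedom. All 6 pairs of groups were compared, calling genes at 0.05 after Benjamini-Hochberg adjustment. The SE is the size of the log2 fold change divided by the square root of F. Where a group held 1 to 3 counts, the ratio of summed counts is given with an exact 95% counting interval, and at 0 counts a bound against 3 counts over the group. The gene test was tested on simulated data with 1 shared spread for all genes and groups. The simulation did not cover the larger differences between the MN-Ctrl replicates.

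Results were recomputed with DESeq2 1.42.0, with its size factors in edgeR, on library totals without TMM, without the filter, with replicate number as a block, and leaving out each library. The same settings for 4 gene lists were chosen after seeing the data. All members are named, and of the listed genes any may be named. Likeness was computed on log2 CPM with a prior count of 2. The members and lists were chosen with earlier results of these data known, and some listed marker genes are not reported here. The correlation between same-numbered samples' deviations ran from -0.0795 to 0.0911 over pairs of groups, so the numbers were not taken as pairing. Replicates of each group differed by more than counting noise. Before TMM scaling the chi-square per gene was 329 in MN-Ctrl, 39.8 in MN-Exp, 36 in MNB and 27 in NP. The fit shares 1 spread over the 4 groups, so the MN-Ctrl pair also enters comparisons that do not name MN-Ctrl.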

Additional observations from a re-analysis of the deposited data

How the results depend on the processing

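The counts of called members were 6 for MN-Exp against NP, 6 for NP against MNB, 7 for MN-Ctrl against NP, 3 for MN-Ctrl against MNB, 1 for MN-Exp against MN-Ctrl and 0 for MN-Exp against MNB, and each was the same with the size factors of DESeq2, on library totals alone, without the filter and with the replicate block, except that on library totals the 3 for MN-Ctrl against MNB held PDPN and not GPM6A. With DESeq2 the count for MN-Exp against MNB was 1. Leaving out each library gave ranges of 4 to 6, 4 to 6, 7 to 7, 1 to 3, 1 to 1 and 0 to 1 in the same order, with 1 for MN-Ctrl against MNB without MNB replicate 2 and 1 for MN-Exp against MNB without MN-Ctrl replicate 1 or 2. A lone library left in a group is assumed to vary like the other groups.

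Of 468 recomputed fold changes of members, 438 kept direction and call, 14 lost the call, 4 gained it and 12 changed sign. All 12 belong to differences that were not called in either setting. For GPM6A in MN-Exp against MN-Ctrl (0.01) they were -0.10 with DESeq2 and with its size factors, 0.00 without MN-Exp replicate 2, -0.19 without MN-Ctrl replicate 2 and -0.02 without NP replicate 2. For PDPN in the same comparison (-0.02) they were 0.89 on library totals alone, 0.00 with no filter and with the replicate block, 0.11 without MN-Exp replicate 1 and 0.47 without MN-Ctrl replicate 2. For TCF21 they were -0.26 against MNB in MN-Exp without MNB replicate 1 and 0.02 in MN-Ctrl without MNB replicate 2. Leave-one-out values ran from -0.19 to 0.32, from -0.37 to 0.47, from -0.26 to 0.79 and from -1.02 to 0.02 for these 4 differences. PDPN was called lower in MN-Ctrl than in MNB on library totals alone (log2 fold change -1.38, adjusted p = 0.0467).

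On library totals alone the all-gene median log2 fold change was 0.89, against 0.11 as reported, for MN-Exp over MN-Ctrl, -0.96, against -0.06, for MN-Ctrl over NP, and -0.97, against -0.11, for MN-Ctrl over MNB. The share of calls that were higher moved to 77%, against 48%, to 24.9%, against 51.2%, and to 18.7%, against 50.4%. On library totals alone MN-Ctrl over NP was -9.18 for WT1, -6.45 for GPM6A, -5.40 for RSPO1 and -3.17 for PDPN, and RSPO1 there was -3.79 without NP replicate 2. HAS1 kept its direction and call in MN-Exp against MN-Ctrl in every setting run. Over all genes the 16 calls between MN-Exp and MNB became 238 with DESeq2, 352 with no filter, 5 on library totals alone and 3 to 297 with 1 library left out. The other comparisons moved by more than 1.5 times only when a library was left out: 3998 for MN-Exp against NP became 1762 to 6444, 3584 for MN-Exp against MN-Ctrl became 1396 to 6358, 3486 for NP against MNB became 1343 to 5795, and 3686 for MN-Ctrl against MNB became 1442 to 6485. Depth limits WT1 and BNC1 in the mucosae, where no difference between groups was detectable.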
